A study of Rattus norvegicus with 9 samples.

Results

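Toll-like receptors and their adaptor Myd88 were followed in alveolar macrophages, the resident phagocytes of the air spaces, after nitrogen mustard. Members were the genes Tlr2, Tlr3, Tlr4, Tlr7, Tlr9 and Myd88, found by matching the RefSeq identifier of each deposited transcript row to these symbols and summing rows per gene. Of the 6 named, 5 were found among 17109 genes, each as 1 transcript row, and all 5 passed the filter on low values; Tlr9 was not analysed here. Cells came from male Wistar rats of 225 to 250 g that had received either nitrogen mustard (NM, mechlorethamine hydrochloride, an alkylating agent that cross-links DNA, 0.125 mg/kg) or PBS, phosphate-buffered saline, instilled through the trachea under isoflurane anaesthesia. RNA was sequenced from 3 groups of 3 libraries: PBS, NM day 1 and NM day 28, the last 2 collected 1 d and 28 d after NM. The labels give no exposure time for PBS other than 0 d, so the PBS animals may not match either NM group in time after instillation. The series' design text calls the 3 libraries of a group biological replicates, but how many rats stand behind each was not given in the sources used here. Levels are in FPKM, fragments scaled by transcript length and by the size of the library, which allows genes of different length to be compared.

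Toll-like receptors are membrane proteins that recognise microbial molecules and some molecules released by injured tissue. Tlr2 and Tlr4 sit at the cell surface, where Tlr2 pairs with Tlr1 or Tlr6 to bind lipoproteins and Tlr4 acts with Ly96 and Cd14 to bind lipopolysaccharide. Tlr3, Tlr7 and Tlr9 sit in endosomes and bind double-stranded RNA, single-stranded RNA and unmethylated CpG DNA. Myd88 couples all of these except Tlr3 to the Irak kinases, Traf6 and NF-kappaB, whereas Tlr3 signals through the adaptor Ticam1 to Irf3 and type I interferon. Alveolar macrophages use these receptors as the first sensors of inhaled particles and microbes.

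Tlr3 was the only one of the 5 measured members called different from PBS: it was higher at day 28, with a mean of 4.72 ± 0.677 FPKM (SD, n = 3) against 1.52 ± 0.487 FPKM in PBS. At day 1, 0 of 5 members were called, although 4 of 5 had groups that did not overlap: Tlr2, Tlr3 and Tlr4 were higher in every NM day 1 library than in any PBS library, and Tlr7 was lower. Such separation was common at day 1, where 33.3% of the 9885 genes tested had groups that did not overlap, so 4 of 5 is read against that share. A gene is called where limma's moderated test on log2(FPKM + 1) gives a Benjamini-Hochberg adjusted p under 0.05 over all 9885 genes tested. At day 1 against PBS, 5.28% of genes tested were called higher and 4.58% lower. At day 28 against PBS the shares were 3.07% higher and 3.98% lower, and 27.1% of genes had groups that did not overlap, against 1 of 5 members (Tlr3). Between the 2 NM groups 0 of 5 members were called, while 4.75% of genes tested were called higher and 6.88% lower at day 28, and 30.8% had groups that did not overlap, again against 1 of 5 members (Tlr3). At an unadjusted p under 0.05, 2 of 5 members passed at day 1 (Tlr2 and Tlr3), 1 at day 28 and 1 between the NM groups (Tlr3 in both), beside 2503, 2359 and 2663 of all genes tested. The median log2 fold change of the 5 members was 0.53 at day 1 and 0.42 at day 28, beside -0.04 and -0.04 over all genes tested. Both comparisons with PBS share the same 3 PBS libraries.

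**Figure D1:**
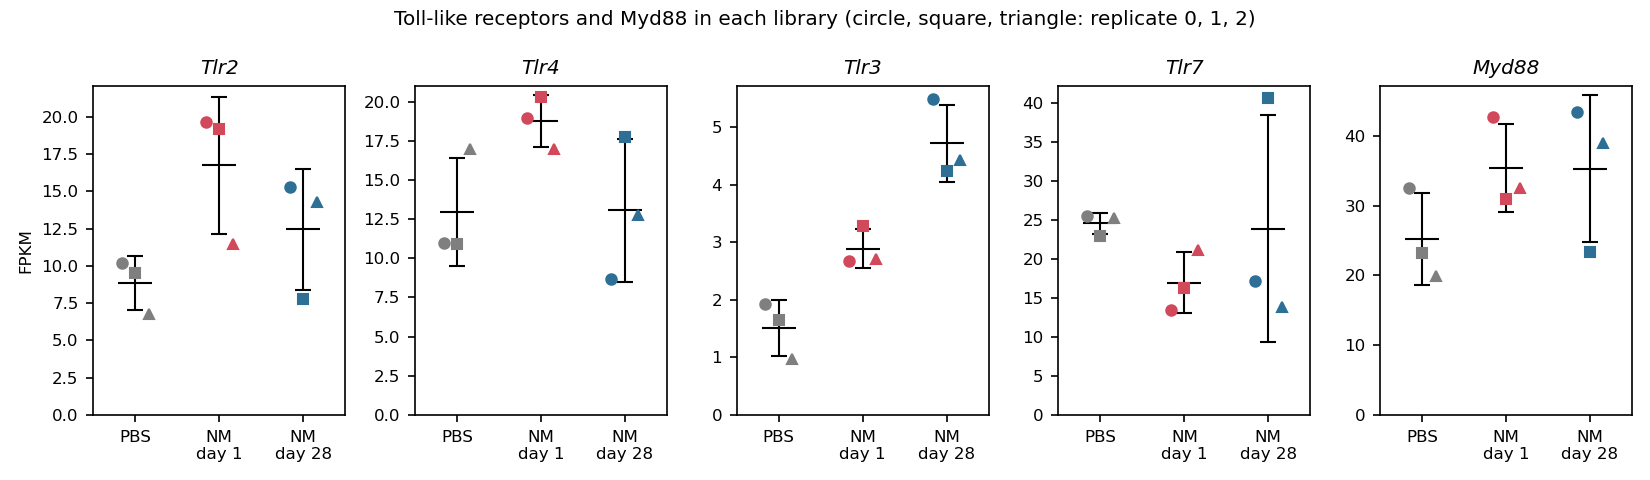
FPKM (vertical axis, from 0, a separate scale for each gene) of Tlr2, Tlr4, Tlr3, Tlr7 and Myd88 in each library of the 3 groups; circles, squares and triangles are replicates 0, 1 and 2, long bars are means and whiskers are 1 SD (n = 3). Tlr3 lies between 4.24 and 5.49 FPKM at NM day 28, above all 6 other libraries, while Tlr7 at NM day 28 is spread from 13.9 to 40.7 FPKM.

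Depth relative to NM day 1 replicate 0, read from the steps of low FPKM values, was 1.42 to 2.585 in PBS, 1 to 1.47 at day 1 and 1.035 to 1.125 at day 28, and absolute depth was not given. Of the alveolar macrophage markers listed, 8 of 9 were in the table; their summed level was 1592 to 2999 FPKM in PBS, 1584 to 1821 at day 1 and 1869 to 2091 at day 28. Of the 7 tested, Car4 was called higher than PBS at both times (log2 3.33 and 2.46), Pparg lower at day 1 (-0.57) and Mrc1 lower at day 28 (-0.73), the last 2 each losing the call under 7 of 17 alternatives. Car4 had at most 0.609 FPKM in PBS and passed the filter on low values only through NM libraries. Its calls are thus partly fixed by that filter, and its day 28 call was lost with a pseudocount of 5 (limma adjusted p = 0.0523). The scavenger receptor Marco, a defining marker, was listed at 0 in all 9 libraries. Markers of other cells were also present: alveolar epithelial markers summed to 215 to 329 FPKM in PBS, 1000 to 3015 at day 1 and 275 to 379 at day 28. NM day 28 replicate 1 stood apart from the other NM day 28 libraries in several members described here, and values of the day 28 comparisons without it are given where it moved them most. In these bulk samples fewer cells of a type and less RNA per cell cannot be told apart.

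Both surface receptors, Tlr2 and Tlr4, lay above PBS in every NM day 1 library, and neither was called. Tlr2, the receptor for bacterial lipoproteins, had 10.2, 9.55 and 6.76 FPKM in PBS replicates 0, 1 and 2. At day 1 it had 19.6, 19.2 and 11.5 FPKM, and at day 28 it had 15.3, 7.77 and 14.3 FPKM. All 3 NM day 1 libraries lay above all PBS libraries, whereas NM day 28 replicate 1 lay within the PBS range and the other 2 NM day 28 libraries lay above it. The day 1 difference was 0.83 ± 0.28 (log2 fold change ± SE, 95% confidence interval 0.22 to 1.44) with a limma adjusted p of 0.0832, so it missed the threshold. Without NM day 28 replicate 1, which enters only through the shared spread, Tlr2 at day 1 was called (limma adjusted p = 0.0339). Over the alternatives that kept all libraries of the comparison its adjusted p ran from 0.0521 to 0.137. At day 28 the difference from PBS was 0.42 (adjusted p = 0.404), and NM day 28 differed from NM day 1 by -0.42 (adjusted p = 0.378), both by limma. Without NM day 28 replicate 1 these were 0.70 (limma adjusted p = 0.115) and -0.13 (limma adjusted p = 0.774).

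Tlr4, the lipopolysaccharide receptor, had 10.96, 10.94 and 16.95 FPKM in PBS. Its values were 18.9, 20.3 and 17.00 FPKM at day 1 and 8.68, 17.8 and 12.7 FPKM at day 28. The day 1 libraries were all above PBS, but the lowest of them exceeded the highest PBS library by a margin far smaller than either group's spread. The day 1 log2 fold change was 0.53 ± 0.25 and was not called (limma adjusted p = 0.213). At day 28 the group mean, 13.06 FPKM, was close to the PBS mean of 12.95 FPKM, with a log2 difference of -0.01 (limma adjusted p = 0.983), or -0.25 without NM day 28 replicate 1 (limma adjusted p = 0.558). The direction of that small difference turned with scaling: median-of-ratios scaling gave 0.01. Between the NM groups the difference was -0.54 (limma adjusted p = 0.191), which was called only without NM day 28 replicate 1 (adjusted p = 0.0496).

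Summed over Tlr2 and Tlr4, the surface members had 21.8 ± 1.70 FPKM in PBS, 35.5 ± 6.11 FPKM at day 1 and 25.5 ± 1.55 FPKM at day 28 (SD, n = 3). Neither NM group overlapped PBS in this sum. At day 1 this was fixed in advance, because each gene lay above PBS in every library, so it is not a further result. How often sums of other gene pairs were separate was not tested. At day 28 the margin was far smaller than either group's spread, with 23.9 FPKM in the lowest NM day 28 library and 23.7 in the highest PBS library. A two-sided exact permutation test gave p = 0.1 for each against PBS, the smallest p that 3 against 3 libraries allow. The share of Tlr2 in that sum was 41.1% ± 10.9 in PBS, 46.6% ± 5.58 at day 1 and 49.0% ± 17.0 at day 28, with exact permutation p = 0.5 for each, so no shift between these 2 receptors was detectable beyond the spread.

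The endosomal receptors differed from each other in both level and pattern. Tlr3, the sensor of double-stranded RNA, was the lowest member in every library. It had 1.92, 1.66 and 0.980 FPKM in PBS, 2.69, 3.29 and 2.71 FPKM at day 1, and 5.49, 4.24 and 4.43 FPKM at day 28. The 3 groups did not overlap, and their order was PBS, day 1, day 28. The mean at day 28 was 3.10 times that in PBS; on the log2(FPKM + 1) scale, which makes changes of such low genes smaller, the difference was 1.19 ± 0.24 (95% interval 0.68 to 1.71, limma adjusted p = 0.0119). The call held with each of the 9 libraries left out in turn (adjusted p from 0.0164 to 0.0434) and in each of the 7 other alternatives that tested the gene. With a filter of 5 FPKM in 3 libraries Tlr3 was not tested at all. At day 1 the difference from PBS was 0.64 ± 0.24 (limma adjusted p = 0.112), and day 28 exceeded day 1 by 0.55 ± 0.24 (limma adjusted p = 0.156). Neither of these smaller steps was called.

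The 250 bases before the RefSeq transcription start are shown for Tlr3, the member that was called, and for Tlr4 and Myd88, so that its region can be read beside 2 members that were not. The windows of Tlr2 and Tlr7 overlap annotated gene bodies and are not shown. They lie on build GRCr8 at chr16:53554666-53554915 (Tlr3, plus strand), chr5:85160997-85161246 (Tlr4, plus strand) and chr8:127956231-127956480 (Myd88, minus strand). Capitals mark matches, on either strand, to GAGGAA, the core of the PU-box bound by a transcription factor of macrophages. They also mark TGANTCA, a loose form of an AP-1 site in which N is any base.
Tlr3: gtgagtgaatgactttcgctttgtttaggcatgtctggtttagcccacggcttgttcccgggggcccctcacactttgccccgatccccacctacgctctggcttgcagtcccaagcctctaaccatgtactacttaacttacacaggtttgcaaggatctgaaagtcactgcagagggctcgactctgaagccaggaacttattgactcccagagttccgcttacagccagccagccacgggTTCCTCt
Tlr4: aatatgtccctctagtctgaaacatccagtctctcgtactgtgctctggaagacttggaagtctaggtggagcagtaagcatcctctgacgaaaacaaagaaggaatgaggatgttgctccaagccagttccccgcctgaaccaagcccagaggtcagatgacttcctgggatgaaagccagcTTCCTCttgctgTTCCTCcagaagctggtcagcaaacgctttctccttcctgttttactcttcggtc
Myd88: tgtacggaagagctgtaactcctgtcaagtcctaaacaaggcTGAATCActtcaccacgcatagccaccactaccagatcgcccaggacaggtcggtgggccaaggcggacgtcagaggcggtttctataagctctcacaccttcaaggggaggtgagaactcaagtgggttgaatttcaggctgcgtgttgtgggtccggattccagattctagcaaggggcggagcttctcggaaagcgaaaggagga
GAGGAA matched once in Tlr3, starting 7 bases before the transcription start, and at 67 and 55 bases before the start in Tlr4, each time as its reverse complement. TGANTCA matched once in Myd88, 208 bases before the start, with A at the free position N. Of the 33469 RefSeq windows of this length 23.3% hold the first motif and 6.34% the second. A match describes the letters only, binding was not measured, and the FPKM values were made on another build, rn4.

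Tlr7, the sensor of single-stranded RNA, had 25.5, 23.0 and 25.3 FPKM in PBS, the narrowest ratio of highest to lowest library of any member in that group, 1.11. At day 1 it had 13.5, 16.2 and 21.2 FPKM, all below PBS, the opposite direction to the other 3 receptors. The log2 difference was -0.53 ± 0.32 (95% interval -1.22 to 0.15), and it was not called (limma adjusted p = 0.323). At day 28 Tlr7 had 17.3, 40.7 and 13.9 FPKM: replicates 0 and 2 lay below every PBS library and replicate 1 lay above. The group difference from PBS, -0.19, was not called (limma adjusted p = 0.769). Without replicate 1 it was -0.63, also not called (limma adjusted p = 0.0814), and without replicate 2 it was 0.11. Day 28 differed from day 1 by 0.34 (limma adjusted p = 0.532), or by -0.10 without replicate 1 (limma adjusted p = 0.788).

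The sum of Tlr3 and Tlr7 was 26.1 ± 1.37 FPKM in PBS, 19.9 ± 3.87 FPKM at day 1 and 28.7 ± 14.2 FPKM at day 28 (SD, n = 3). At day 1 every library lay below PBS in this sum (exact permutation p = 0.1), and at day 28 the groups overlapped (exact permutation p = 1). Tlr3 made up 7.02%, 6.71% and 3.73% of the sum in the PBS libraries, 16.6%, 16.8% and 11.3% at day 1, and 24.1%, 9.44% and 24.2% at day 28. Each NM library had a larger Tlr3 share than any PBS library (exact permutation p = 0.1 for each group, the smallest possible), and NM day 28 replicate 1 had the smallest share of the 6 NM libraries. At day 1 this was fixed in advance, because Tlr3 lay above PBS and Tlr7 below PBS in every library. The share restates the ratio of Tlr3 to Tlr7 and is not a further, independent result.

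Myd88, the shared adaptor, was the highest member on average in all 3 groups. It had 32.5, 23.2 and 19.96 FPKM in PBS, 42.7, 31.0 and 32.6 FPKM at day 1, and 43.4, 23.4 and 38.9 FPKM at day 28. PBS replicate 0 lay within the range of the NM day 1 libraries, and NM day 28 replicate 1 lay within the PBS range, so the groups overlapped in both comparisons with PBS. The log2 fold changes were 0.49 ± 0.25 at day 1 (limma adjusted p = 0.245) and 0.45 ± 0.25 at day 28 (limma adjusted p = 0.300), and the NM groups differed by -0.04 (limma adjusted p = 0.943). Without NM day 28 replicate 1 the day 28 difference from PBS was 0.71 (limma adjusted p = 0.0694) and that between the NM groups was 0.22 (limma adjusted p = 0.538).

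In PBS the members ran, from high to low, Myd88, Tlr7, Tlr4, Tlr2 and Tlr3. Myd88 and Tlr7 overlapped, with Myd88 the higher in 2 of 3 libraries, and every other neighbour in that order was separated in all 3. At day 1 the order of means was Myd88, Tlr4, Tlr7, Tlr2 and Tlr3: Myd88 stood above all receptors, Tlr4, Tlr7 and Tlr2 overlapped, and Tlr3 stood below. At day 28 Myd88, Tlr7, Tlr4 and Tlr2 overlapped as neighbours and Tlr3 again stood below. Among all genes tested, 61.4%, 72.0% and 71.3% had a lower mean than Myd88 in PBS, day 1 and day 28, and 8.67%, 11.7% and 21.4% had a lower mean than Tlr3.

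The 10 ratios between 2 members were compared over the 3 pairs of groups, 30 exact permutation tests in all, whose smallest p was 0.1 and whose smallest Benjamini-Hochberg adjusted p was 0.273, so none could pass. Groups did not overlap for 4 of 10 ratios at day 1, and each of these 4 held Tlr7: Tlr2, Tlr3, Tlr4 and Myd88 were all higher relative to Tlr7. At day 28, 4 ratios were separate from PBS and each held Tlr3, which was higher relative to Tlr2, Tlr4, Tlr7 and Myd88. Between day 1 and day 28, 3 ratios were separate, Tlr3 to Tlr2, Tlr3 to Tlr4 and Tlr3 to Myd88, each higher at day 28. Ratios that hold the same member are not independent of each other. As single genes, Tlr7 at day 1 and Tlr3 at day 28 and between the NM groups were already separate. The counts of separate ratios are thus not a further, independent result. How often ratios between other genes were separate was not tested. The log2 ratio of Tlr2 to Tlr7, as an example, was -1.499 ± 0.352 in PBS and -0.04 ± 0.752 at day 1 (SD, n = 3).

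**Figure D2:**
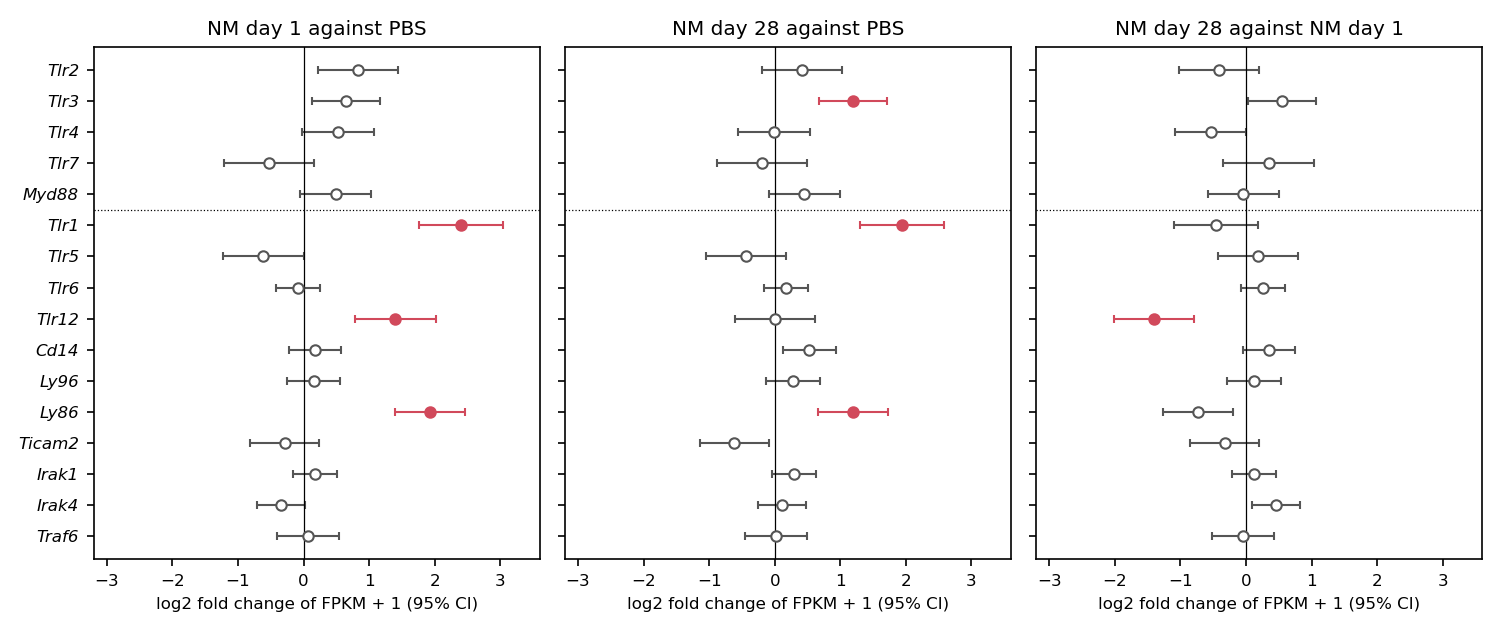
Fitted log2 fold changes of FPKM + 1 (horizontal axis) with 95% confidence intervals for the 5 members (above the dotted line) and other Toll-like receptors and partners (below it) in the 3 comparisons; filled red points passed an adjusted p of 0.05. Tlr3 is the only filled member point, at 1.19 at day 28 against PBS, while Tlr1 is filled against PBS at both times (2.40 and 1.94).

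Among the other Toll-like receptors the largest difference was in Tlr1, the partner of Tlr2 for triacylated lipoproteins. It had 0.774, 0.716 and 0.375 FPKM in PBS, 8.40, 9.01 and 5.53 FPKM at day 1, and 6.85, 3.09 and 6.40 FPKM at day 28. Tlr1 rose at both times, with log2 fold changes of 2.40 ± 0.29 at day 1 (limma adjusted p = 0.000342) and 1.94 ± 0.29 at day 28 (limma adjusted p = 0.00268), and both calls held in all 17 alternatives. All PBS values lay under the filter of 1 FPKM, so Tlr1 passed it only through NM libraries. Its calls are thus partly fixed by that filter. Tlr6, the other partner of Tlr2, had means of 20.7, 19.4 and 23.4 FPKM in PBS, day 1 and day 28 and was not called (log2 -0.09 and 0.17, limma adjusted p = 0.778 and 0.547). Tlr1 thus made up 2.96% ± 1.16 of the Tlr1 and Tlr6 sum in PBS, 28.1% ± 6.15 at day 1 and 18.8% ± 6.76 at day 28, with no overlap with PBS (exact permutation p = 0.1 for each, the smallest possible). Tlr1 and Tlr6 are close paralogs, and how reads matching both were counted was not given, so the split between them is uncertain.

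Tlr5, the flagellin receptor, had means of 17.1 ± 8.50, 10.2 ± 2.12 and 11.6 ± 1.18 FPKM (SD, n = 3) in PBS, day 1 and day 28, with PBS replicate 2 at 26.9 FPKM, and was not called (log2 -0.61 and -0.43, limma adjusted p = 0.197 and 0.383). Tlr12 was listed at 0 in all PBS and all NM day 28 libraries and at 1.58, 2.32 and 1.15 FPKM at day 1. It was called higher than PBS at day 1 (limma adjusted p = 0.0104) and was not tested with a filter of 5 FPKM. It passed the filter used here only through its NM day 1 libraries, so the call is partly fixed by that filter. Tlr10 and Tlr11 were under the filter, with means of 1.22 and 0.650 FPKM at day 1 as their highest. Tlr8 and Tlr13 were not analysed here. Summed over all 10 Toll-like receptor genes in the table, the level was 86.4 ± 11.5 FPKM in PBS, 96.2 ± 7.24 at day 1 and 95.03 ± 14.0 at day 28 (exact permutation p = 0.3 and 0.5 against PBS).

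**Figure D3:**
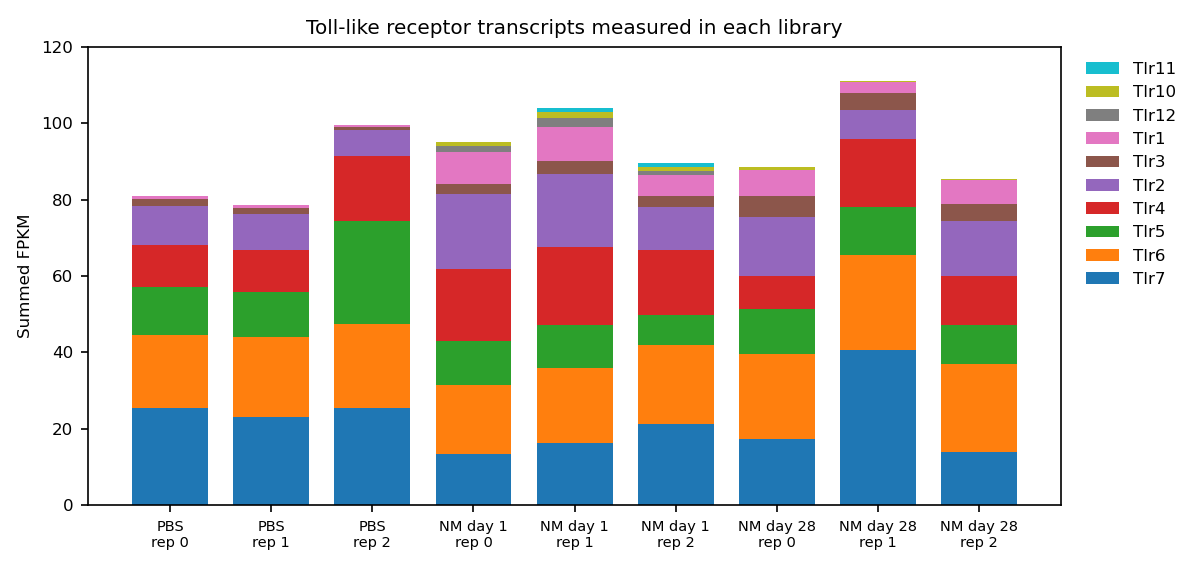
Summed FPKM (vertical axis, from 0) of the 10 Toll-like receptor genes in each of the 9 libraries, each colour 1 gene. Tlr7, Tlr6, Tlr5, Tlr4 and Tlr2 make up most of every bar; the Tlr1 segment is 0.774 FPKM or less in PBS and at least 3.09 FPKM after NM, and NM day 28 replicate 1 has the tallest bar, with Tlr7 at 40.7 FPKM.

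Of the partners that act beside the receptors, most were not called. Cd14, which hands lipopolysaccharide to Tlr4, had means of 64.9 ± 4.70, 73.7 ± 9.90 and 95.7 ± 23.2 FPKM (SD, n = 3) in PBS, day 1 and day 28, and its log2 differences from PBS of 0.18 and 0.53 were not called (limma adjusted p = 0.603 and 0.106). Ly96, the lipopolysaccharide-binding subunit of the Tlr4 complex, was far more abundant at 230 ± 31.5, 259 ± 59.3 and 278 ± 28.4 FPKM and was not called (limma adjusted p = 0.660 and 0.405). Of the 6 co-receptor and ligand capture genes only Ly86, which forms a complex with the Tlr4 relative Cd180, was called: it had 10.04, 9.26 and 6.06 FPKM in PBS, 33.4, 25.5 and 47.4 FPKM at day 1, and 21.3, 22.9 and 17.1 FPKM at day 28. Ly86 rose by 1.93 ± 0.25 on the log2 scale at day 1 (limma adjusted p = 0.000484) and 1.20 ± 0.25 at day 28 (limma adjusted p = 0.0134), with no overlap between NM and PBS libraries.

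The proximal kinases downstream of Myd88 were not called. Irak4, the first kinase recruited, had means of 17.5, 13.6 and 19.1 FPKM in PBS, day 1 and day 28; its day 1 libraries lay below all others, with a log2 difference of -0.34 (limma adjusted p = 0.233). Between day 1 and day 28 it differed by 0.46 (limma adjusted p = 0.101), which was called without NM day 28 replicate 1 (adjusted p = 0.0369). Irak1 differed from PBS by 0.18 and 0.30, and Traf6, the ubiquitin ligase they engage, by 0.07 and 0.02, none called. Ticam2, the bridging adaptor of Tlr4, differed by -0.29 and -0.62 (limma adjusted p = 0.493 and 0.142). Of the 15 kinases and ubiquitin ligases tested, 1 was called higher at day 1 (Ube2n, log2 0.82, limma adjusted p = 0.0374, lost with no filter and in 5 of the 9 fits that left out a library, to 0.163 at most without NM day 1 replicate 0) and 0 at day 28. At an unadjusted p under 0.05, 4 of these 15 passed at day 1 and 1 at day 28. These shares, 26.7% and 6.67%, stand beside 25.3% and 23.9% of all genes tested. Tirap, Ticam1 and the chaperone Unc93b1 were not analysed here.

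Over the 12 lists of other pathway genes, 90 of 124 genes were tested. At day 1, 29 were called higher and 2 lower; at day 28 against PBS, 10 higher and 2 lower; and between the NM groups, 1 higher and 21 lower at day 28. The shares called, 34.4%, 13.3% and 24.4%, stand beside the shares of all genes given above. Without NM day 28 replicate 1 the counts were 30 and 3, 12 and 2, and 2 and 21. The list calls were made with earlier results of these libraries known and are a description.

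Endogenous ligands and target genes held most of the calls at day 1, 4, 5 and 8 of 29. Among endogenous ligands, molecules of injured tissue that can engage Tlr2 or Tlr4, 4 of 6 tested rose at day 1 and 3 at day 28, with list medians of 2.32 and 1.24. Fn1, fibronectin, had 7.59 to 14.9 FPKM in PBS, 46.0 to 79.5 at day 1 and 57.4 to 79.0 at day 28 (log2 2.38 and 2.54, limma adjusted p = 0.000153 and 0.000362). The other ligands called were S100a8 and S100a9, the calprotectin subunits, at both times, and the proteoglycan Vcan at day 1 only, which was lower at day 28 than at day 1 (log2 -2.71). S100a8 and S100a9 are also neutrophil markers and Vcan is also on the monocyte list used here.

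All 14 NF-kappaB target genes listed were found, but only 9 passed the filter on low values and were tested. Of these 9, 5 rose at day 1 (Il1b, Cxcl1, Cxcl2, Ccl3 and Cd40) and 3 at day 28 (Il1b, Cxcl2 and Ccl3), with medians of 0.90 and 0.42. The chemokine Ccl3, for example, had 130 to 157 FPKM in PBS, 235 to 312 at day 1 and 251 to 323 at day 28 (log2 0.86 and 0.98, limma adjusted p = 0.00804 and 0.00502). Cxcl1 passed the filter on low values only through the NM day 1 libraries. Of 10 interferon-type target genes tested, 8 rose at day 1, with a median of 2.16, and 2 at day 28 (Ifit3 and Oasl, the latter lost under 4 of 17 alternatives), with a median of 0.21; 6 were lower at day 28 than at day 1. The count of 2 was 3 without NM day 28 replicate 1 and ran from 1 to 3 over the fits that left out a library. Mx2, an antiviral GTPase, had 1.07 to 1.75 FPKM in PBS, 24.8 to 29.5 at day 1 and 1.42 to 2.73 at day 28. Mx2 thus had its highest mean at day 1, whereas Tlr3 had its highest mean at day 28. Irf7, a transcription factor downstream of Tlr7 and Tlr9 in type I interferon induction, rose at day 1 from a mean of 9.01 to 39.0 FPKM (log2 2.01 ± 0.23, limma adjusted p = 0.000191) and was 11.6 FPKM at day 28.

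Of 7 transcription factors tested, 2 were called higher (Irf5 and Irf7) and 1 lower (Irf3) at day 1, and 1 lower at day 28. Irf5 (log2 0.56, limma adjusted p = 0.0381) lost its call under 9 of 17 alternatives. The factor lower at day 28 was the NF-kappaB subunit Nfkb2, with a log2 fold change of -0.82 (limma adjusted p = 0.018), a call lost under 3 of 17 alternatives. Between the NM groups Irf3 was higher and Nfkb1 and Irf7 were lower at day 28. Irf3, the factor on the Tlr3 branch, had 210 to 275 FPKM in PBS, 153 to 167 at day 1 and 228 to 345 at day 28. It was called lower at day 1 (log2 -0.65, limma adjusted p = 0.0438), a call lost under 10 of 17 alternatives (adjusted p up to 0.174), and higher at day 28 than at day 1 (log2 0.88). Of 13 inhibitors tested, Nfkbia, which holds NF-kappaB in the cytoplasm, and the phosphatase Dusp1 rose at day 1 and 0 were called at day 28. Nfkbia (log2 1.09, limma adjusted p = 0.0139) lost its call without PBS replicate 1 (0.0693) or NM day 1 replicate 0 (0.0745). Among 7 genes of endosomal trafficking and processing, Ctsl, a protease that cleaves endosomal receptors, rose at day 1 from a mean of 11.5 to 40.7 FPKM, and Hsp90b1, the chaperone of most Toll-like receptors, fell at day 28 from 234 to 110 FPKM.

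Of 4 interleukin-1 family receptors, which signal through Myd88 too, Il18r1 was called higher at day 1 and 3 were lower at day 28 than at day 1 (Il1rl1, Il1rl2 and Il18r1). Of 7 cytosolic sensors, Sting1 and Zbp1 were called higher and Nod1 lower at day 1, and 0 at day 28. The day 1 calls of Il18r1, Zbp1 and Nod1 were lost under 6 of 16, 7 of 17 and 12 of 17 alternatives. Il18r1 passed the filter on low values only through the NM day 1 libraries, so its calls are partly fixed by that filter. The 2 other adaptors tested had no call.

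**Figure D4:**
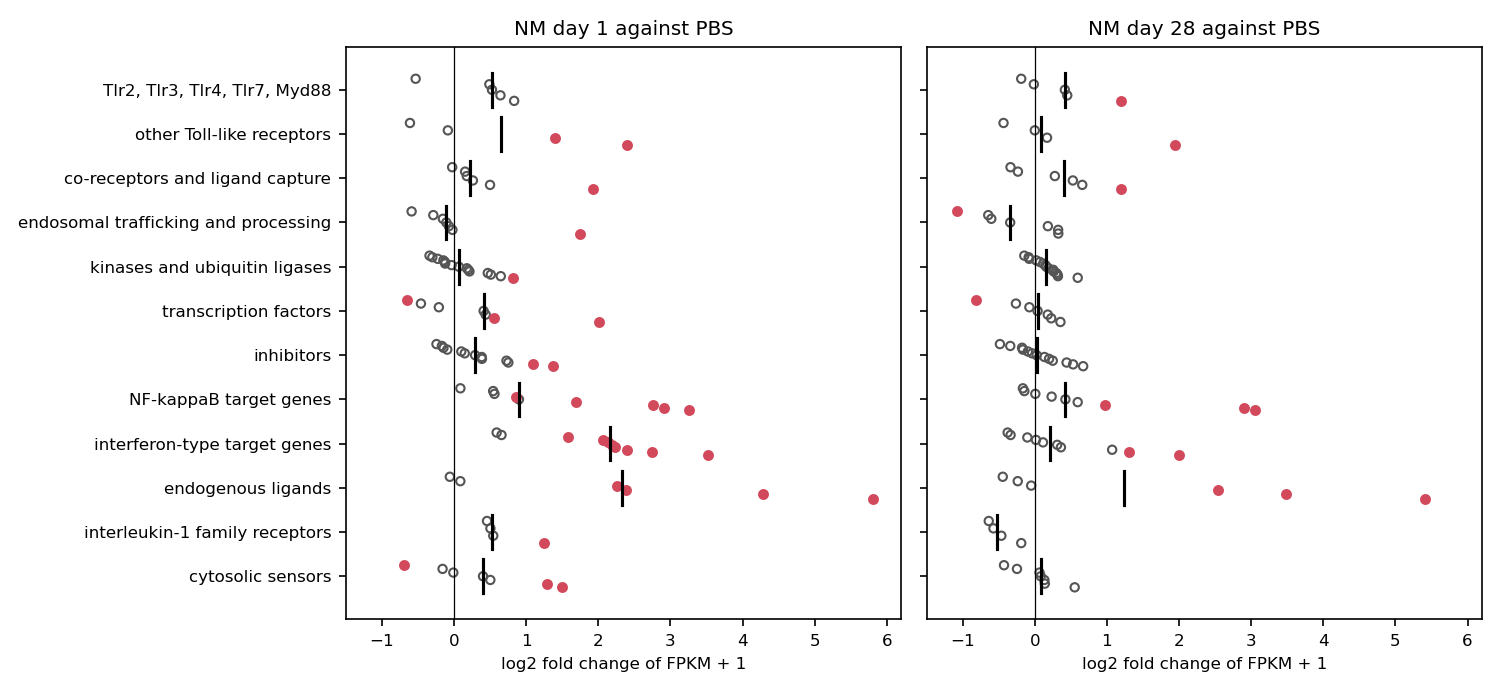
Each point is 1 gene's log2 fold change of FPKM + 1 (horizontal axis) at NM day 1 (left) and NM day 28 (right) against PBS, by list; filled red points passed an adjusted p of 0.05 and vertical bars are list medians (the 2 genes of other adaptors are not drawn). Interferon-type target genes have a median of 2.16 at day 1 and 0.21 at day 28, whereas those of the kinases and ubiquitin ligases are 0.07 and 0.16.

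Markers of other cells also differed between the groups. Monocyte and recruited macrophage markers summed to 4.42 to 8.95 FPKM in PBS, 102 to 142 at day 1 and 22.3 to 28.0 at day 28, with 6 of 7 called higher at day 1 and 2 of 7 at day 28, and Ccr2 and Ly6c at 0 in all PBS libraries. Neutrophil markers summed to 291 to 457, 717 to 1035 and 573 to 1066 FPKM, with 5 of 8 tested called higher and 1 lower (Cxcr1) at day 1 and 4 higher at day 28; Retnlg and Ltf were at 0 in all PBS libraries. Most of the PBS sum was Cxcr1 alone, with 218 to 373 FPKM in PBS, 129 to 185 at day 1 and 343 to 361 at day 28. Alveolar epithelial markers had 8 of 10 tested called higher at day 1, but 4 without NM day 1 replicate 0 and 5 without NM day 1 replicate 1 or PBS replicate 0. At day 28, 1 was called higher (Hopx, lost under 7 of 17 alternatives) and 1 lower (Aqp5, log2 -2.36, limma adjusted p = 0.00116), and Sftpd was at 0 in all 9 libraries. T cell markers had 3 of 6 tested called higher at day 1 and summed to 21.1 to 32.1, 59.2 to 67.4 and 25.02 to 32.7 FPKM, with Cd3e at 0 in PBS and at day 28. Natural killer cell markers summed to 5.75 to 5.88, 38.1 to 47.6 and 9.03 to 20.4 FPKM, and dendritic cell markers to 5.41 to 8.01, 23.5 to 26.3 and 7.37 to 12.6 FPKM.

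Plasmacytoid dendritic cells, a cell type rich in Tlr7 and Tlr9, had 3 of 5 listed markers in the table, which summed to 11.2 to 22.7 FPKM in PBS, 12.8 to 20.5 at day 1 and 8.91 to 14.4 at day 28, with 0 of 2 tested called against PBS. B cell markers summed to 1.45 to 7.91, 1.98 to 3.62 and 0.285 to 0.848 FPKM. Airway epithelial markers summed to 1178 to 6818, 1167 to 2757 and 751 to 1142 FPKM, endothelial markers to 38.9 to 42.9, 40.7 to 52.9 and 20.9 to 31.8 FPKM, and fibroblast markers to at most 0.576 FPKM in any library. What these cells contributed to the levels of Tlr1, Tlr2, Tlr3, Tlr4, Tlr7 and Myd88 was not tested.

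In PBS, Tlr1, Tlr2, Tlr3 and Myd88 were highest in replicate 0 and lowest in replicate 2, and at day 28 these 4 were highest in replicate 0 and lowest in replicate 1. At day 1 their orders differed: Tlr2 and Myd88 were highest in replicate 0 and Tlr1 and Tlr3 in replicate 1, while Tlr1 and Tlr2 were lowest in replicate 2, Myd88 in replicate 1 and Tlr3 in replicate 0. NM day 28 replicate 1 lay below its group mean by 0.56 for Tlr2, 0.53 for Myd88 and 0.60 for Tlr1 on the log2 scale, but above it by 0.47 for Tlr4 and 0.89 for Tlr7. In the same library Il1b, the interleukin-1 beta gene, lay 1.25 below its group mean and S100a9 lay 1.38 below. Its S100a9 was 78.3 FPKM, against 320 and 346 FPKM in the other 2 NM day 28 libraries and at most 5.41 FPKM in PBS. Tlr3 in this library lay 0.12 below its group mean.

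**Figure D5:**
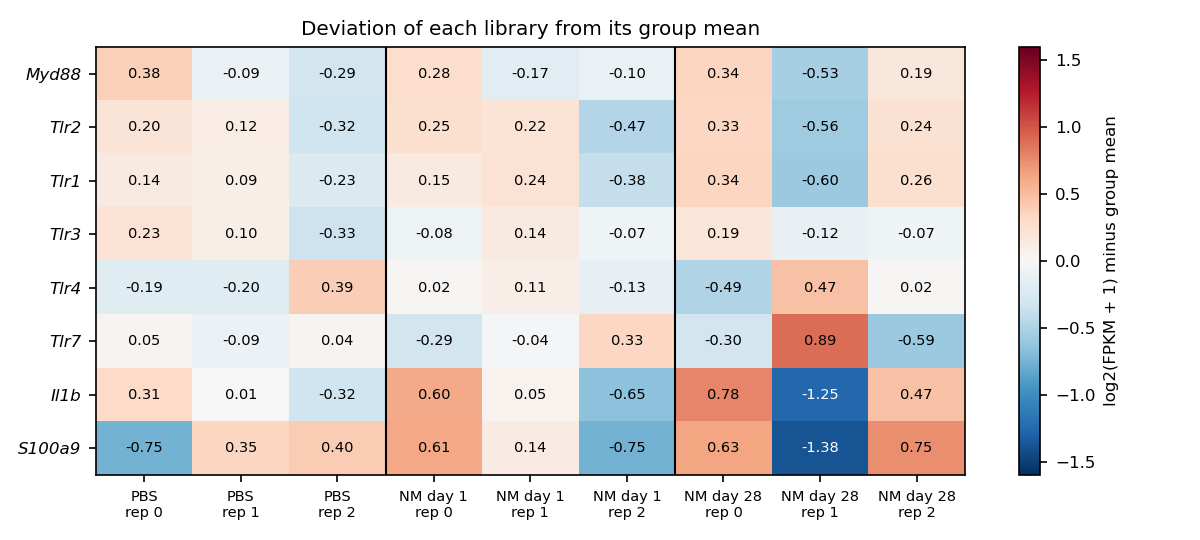
Difference of each library's log2(FPKM + 1) from its group mean (colour and printed value) for the 5 members, Tlr1, Il1b and S100a9 (rows) in the 9 libraries (columns; black lines part the groups). NM day 28 replicate 1 is low in Tlr2 (-0.56), Myd88 (-0.53) and S100a9 (-1.38) and high in Tlr7 (0.89).

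Over all 9 libraries, likeness between 2 genes was measured as the root mean square difference of their centred log2(FPKM + 1) values. The genes most like Tlr2 were Bzw2 (0.0892) and Rab20 (0.143), and Myd88 stood 54th of all genes tested (0.266). Tlr3, Tlr4 and Tlr7 stood 2362nd, 4794th and 9391st in likeness to Tlr2, and Tlr2 stood 328th in likeness to Myd88. Sod2, the mitochondrial superoxide dismutase (0.0960), and Lage3 (0.113) were most like Myd88. Laptm4b (0.161) and Ifi27l2b (0.165) were most like Tlr3, and Strn3 (0.125) and Alms1 (0.126) were most like Tlr4. For Tlr7 they were a transcript without a symbol (0.158), which lay at 0 to 2.07 FPKM, and the amino acid transporter Slc7a8 (0.177). The members least like each other were Tlr2 and Tlr7, at 0.895.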

How the data were processed

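RNA of 9 alveolar macrophage libraries was purified on RNeasy columns and sequenced as 75 bp paired end reads of TruSeq RNA libraries, per the labels' protocols. Per the submitters' processing notes, TopHat and Cuffdiff were used on build rn4; versions, annotation, strand and how multiply matching reads were handled are not given in the sources used here. Values in FPKM, as the authors deposited them, cover 18197 transcript rows and keep no read counts, so no count model was used. Symbols came from RefSeq (GRCr8), which named 17189 rows (94.5%); promoter sequences are from RefSeq on the same build. An authors' table of significant isoforms was not analysed here.

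Transcripts were summed per symbol, and 9885 of 17109 genes with at least 1 FPKM in at least 3 libraries were fitted with limma 3.58.1 in R 4.3.3 (lmFit, eBayes with trend) on log2(FPKM + 1), which understates changes of low genes. The fit had 3 group means, a spread shared over 9 libraries, no block, two-sided tests and Benjamini-Hochberg adjustment over all genes tested. The code was checked on simulated data. Sums, shares and ratios were compared by exact permutation tests with scipy 1.17.1. P-values measure only the spread between these libraries.

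Members and lists were chosen with earlier results of these data known. Genes named were the members, their direct partners, per comparison the called genes of smallest p in each pathway list (up to 3) and each cell type list (up to 2), and the 2 genes most like each member. Ccl3 at day 1, Tlr10, Tlr11, Tlr12 and Marco, other list members, and the genes shown by library were named after their values were seen. For relative depth, the mode of the ratios of FPKM values under 1 to those of NM day 1 replicate 0 was taken. Longer NF-kappaB and interferon response motifs were also searched in the promoters and are not shown, so the capitals do not mark matches to them.

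Alternatives changed the pseudocount (0.1 or 5), the filter (none, or 5 FPKM), the scaling (median-of-ratios, or quantile normalisation) and the libraries fitted (only the 6 compared), or added the replicate number as a block, and each library was left out in turn. Counts over the pathway lists and the Tlr1 share under these alternatives were added after seeing the data.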

Additional observations from a re-analysis of the deposited data

Results flagged for a closer look

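None of the 5 members differed between the effects of NM at day 1 and at day 28 by the test of that difference, the comparison of NM day 28 with NM day 1 by limma at an adjusted p under 0.05. Of the 90 other pathway genes tested, 1 was higher and 21 were lower at day 28, beside 4.75% and 6.88% of all genes tested. The 19 named here were picked for a small p in this or another comparison, so their number is no result; values are on the log2(FPKM + 1) scale. The interferon-type target genes Mx2 (-3.16), Isg15 (-2.16) and Rsad2 (-1.92) and the factor Irf7 (-1.65) were lower, as were the NF-kappaB target genes Cd40 (-3.06) and Cxcl1 (-1.86). The ligand Vcan differed by -2.71, the protease Ctsl by -1.42 and the chaperone Hsp90b1 by -0.97. Inhibitors were represented by Dusp1 (-1.17) and Socs1 (-1.24), transcription factors by Nfkb1 (-0.51), and cytosolic sensors by Sting1 (-0.95) and Zbp1 (-1.15). The interleukin-1 family receptors Il18r1 (-1.71), Il1rl1 (-1.18) and Il1rl2 (-1.08) were lower too. Tlr12 (-1.40) and Il18r1 were listed at 0 in all NM day 28 libraries, so their differences depend on the pseudocount. Tlr12, Il18r1, Rsad2 and Cxcl1 passed the filter on low values only through the NM day 1 libraries. Their lower values at day 28 are thus partly fixed by that filter. The differences of Nfkb1, Zbp1, Socs1 and Il1rl2 lost their calls under 8, 10, 5 and 4 of 17 alternatives, that of Sting1 without NM day 1 replicate 1 (adjusted p = 0.0588) and that of Cxcl1 under quantile normalisation (adjusted p = 0.0527). Irf3 was the exception in direction, higher at day 28 by 0.88.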

How the results depend on the processing

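The call of Tlr3 at day 28 held in every alternative that tested it, while the filter of 5 FPKM left it out and gave 0 members called. With one library left out, members called ran from 0 to 1 at day 1, were 1 throughout at day 28 and ran from 0 to 1 between the NM groups, each gain without NM day 28 replicate 1. Directions that turned were all of uncalled differences. Median-of-ratios scaling turned Tlr4 at day 28 (0.0074), and quantile normalisation turned Traf6 at day 1 (-0.10) and between the NM groups (0.12). With one library left out, Tlr4 at day 28 ran from -0.25 to 0.23, Tlr7 from -0.63 to 0.11 at day 28 and from -0.10 to 0.64 between the NM groups, and Myd88 from -0.21 to 0.22 between the NM groups. Ly96 ran from -0.019 to 0.30 at day 1 and from -0.026 to 0.30 between the NM groups, and Traf6 from -0.069 to 0.19, from -0.11 to 0.15 and from -0.17 to 0.052 in the 3 comparisons. The causes were not tested.

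Counts of all genes called depended on single libraries. With one library left out, 252 to 656 were called higher and 66 to 718 lower at day 1, 154 to 367 and 117 to 426 at day 28, and 225 to 628 and 394 to 775 between the NM groups. Shifts over 1.5 times were, at day 1, 343 higher and 213 lower without PBS replicate 0, 305 and 78 without PBS replicate 1, 252 and 66 without NM day 1 replicate 0, 324 and 197 without NM day 1 replicate 1, 284 lower without NM day 1 replicate 2 and 718 lower without NM day 28 replicate 1. At day 28 they were 154 higher and 117 lower without PBS replicate 1, 219 lower without PBS replicate 0, 172 higher without NM day 28 replicate 0, and 169 higher and 214 lower without NM day 28 replicate 2. Between the NM groups they were 268 higher and 425 lower without NM day 1 replicate 0, 239 and 394 without replicate 1, 297 higher without replicate 2, and 225 and 266 higher without NM day 28 replicates 0 and 2. The filter of 5 FPKM, with fewer genes tested, gave 324 higher at day 1 and 408 lower between the NM groups, and the fit of 6 libraries gave 212 lower at day 28. With one library left out, pathway genes called ran from 22 to 30 higher and 0 to 3 lower at day 1, 9 to 12 higher and 1 to 3 lower at day 28, and 1 to 2 higher and 16 to 21 lower between the NM groups; over the other alternatives the last ran from 14 to 22. The 2 pathway genes lower at day 1 were 0 with no filter, median-of-ratios scaling, quantile normalisation or the replicate block, and the 2 lower at day 28 were 1 in the fit of 6 libraries. Under alternatives that kept all libraries, 42 fits of other named genes lost a call and with one library left out 113 did.

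The titles number replicates 0 to 2 in each group. Deviations of same-numbered libraries correlated at -0.104 to 0.196, over 0.1 in 3 of 9 pairs, and a library correlated best with its own number in 7 of 18 checks, so the numbers were not taken as pairs. With the replicate block 481 genes were called higher at day 1 (522 without), 278 at day 28 (303) and 411 between the NM groups (470), and 1 member was called, Tlr3 at day 28. In PBS, Tlr3 lay near the filter, Tlr1 was under it in all 3 libraries and Tlr12 was listed at 0. Whether depth limited these low values was not tested.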
